A study of Callithrix jacchus with 20 samples.

Results

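The 10 genes described here write, recruit or erase methyl groups on lysine 9 of histone H3 (H3K9). They were chosen by name, with earlier results of these data known. They are the methyltransferase genes SUV39H2, SETDB1, SETDB2, EHMT1 and EHMT2, the corepressor gene TRIM28, and the demethylase genes KDM4A, KDM4B, KDM4C and KDM4D, 10 of the 22330 genes listed for the stem cell libraries and of the 22803 listed for the embryoid body (EB) libraries. All 10 were present in both tables and passed the filter on low values in every comparison. The RNA-seq series held 20 libraries of common marmoset (Callithrix jacchus) cultures. Of these, 11 were of stem cells, 1 was of a donor fibroblast culture and 8 were of EBs, the aggregates in which stem cells differentiate. The fibroblast library was listed with the stem cell libraries. Levels are given as TPM, read counts scaled to gene length and to the library's total, so that they can be set beside each other between genes. The stem cell and EB tables came as separate files, and TPM was set within each library.

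Nuclear transfer embryonic stem cell (ntESC) lines came from embryos made by somatic cell nuclear transfer (SCNT), in which the nucleus of an adult skin fibroblast replaces that of an egg. The 3 ntESC WT lines (#30, #53 and #61) had wild-type fibroblast donors, and the 4 ntESC GFP lines (#24, #50, #54 and #55) had donors carrying an EGFP transgene under the ubiquitous CAG promoter. All 7 lines came from embryos given mouse Kdm4d mRNA at 1500 ng/µl, the deacetylase inhibitor trichostatin A (TSA) at 25 nM for 8 h and the G9a inhibitor RK-701 at 1 µM for 24 h. The 4 control ESC lines (#13 and #37 after natural mating, #15 and #17 after in vitro fertilization) were wild type and came from fertilized embryos without these agents, so the agents and nuclear transfer itself cannot be told apart. The EB groups were ntEB WT (lines #30, #53 and #61), ntEB GFP (#24 and #50) and control EB (#13, #17 and #37), each after 30 days of suspension culture of the line with the same number. The single fibroblast library came from a wild-type donor. No line was sequenced more than once per stage, so the spread between libraries is that between lines. The agents acted on embryos, and RNA was taken from the ntESC lines at passages 5 to 10, against passages 7 to 21 for control ESC lines. Line #54 had a translocation when karyotyped after passage 11.

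Methylation of H3K9 marks silent chromatin. SUV39H2 and SETDB1 trimethylate this residue (H3K9me3), SUV39H2 chiefly at repeats around centromeres and SETDB1 where TRIM28 brings it, through KRAB zinc finger proteins, to retrotransposons and imprinted loci. EHMT1 (also called GLP) and EHMT2 (G9a) form a heterodimer that places mono- and dimethylation in gene-rich chromatin, and SETDB2 is a relative of SETDB1. KDM4A, KDM4B and KDM4C remove methyl groups from H3K9me3 and H3K36me3, and KDM4D, which lacks their reader domains, acts on H3K9. In mouse nuclear transfer embryos, H3K9me3 carried over from the donor nucleus is a known barrier to genome activation, which is why Kdm4d mRNA and G9a inhibitors are given.

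The labels were compared with marker genes before the members were described. The fibroblast library summed to 43463 TPM over 10 fibroblast markers and to 1.53 TPM over 9 pluripotency markers, 7 of which were at 0. The 9 pluripotency markers summed to 4217 and 3808 TPM in ntESC WT #30 and #53, which stood apart from #61 at 7764 TPM, the ntESC GFP lines at 6617 to 9123 TPM and the control ESC lines at 7643 to 9259 TPM. Libraries #30 and #53 held 1284 and 1061 TPM of the fibroblast markers, against 155 TPM in #61 and 285 to 482 TPM in control ESC lines. Among EBs, ntEB GFP #24 went only partly with its label. It kept 5406 TPM of the pluripotency markers, including 1247 TPM of POU5F1 and 831 TPM of NANOG. The 9 markers together summed to 36.6 to 188 TPM in the other 7 EBs. Yet ntEB GFP #24 also held 12561 TPM of the fibroblast markers, against 371 TPM in ntESC GFP #24. Where leaving out #30 and #53, or #24, changed a call, the value without them is given. From the steps between low TPM values, the number of reads per unit of TPM relative to line #13 was 0.744 to 1.01 in the stem cell libraries and 0.788 to 1.33 in EBs, lowest in ntESC GFP #54 and ntEB GFP #24.

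In the control ESC lines the levels of the members differed widely. TRIM28 averaged 951 ± 60.1 TPM (SD, n = 4), followed by EHMT2 at 183 ± 55.3, EHMT1 at 87.5 ± 5.64, KDM4A at 83.3 ± 13.6 and SETDB1 at 41.9 ± 2.14 TPM. KDM4B at 15.0 ± 2.51, SETDB2 at 14.4 ± 2.33, SUV39H2 at 8.21 ± 0.71, KDM4C at 4.41 ± 1.61 and KDM4D at 0.79 ± 0.10 TPM were lower. Neighbours in this order overlapped between libraries for EHMT1 and KDM4A, and for KDM4B and SETDB2. The scaffold of the TRIM28 pathway was thus the most abundant of the 10 messages, and the gene whose mouse ortholog was injected into the embryos was the least abundant.

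**Figure D1:**
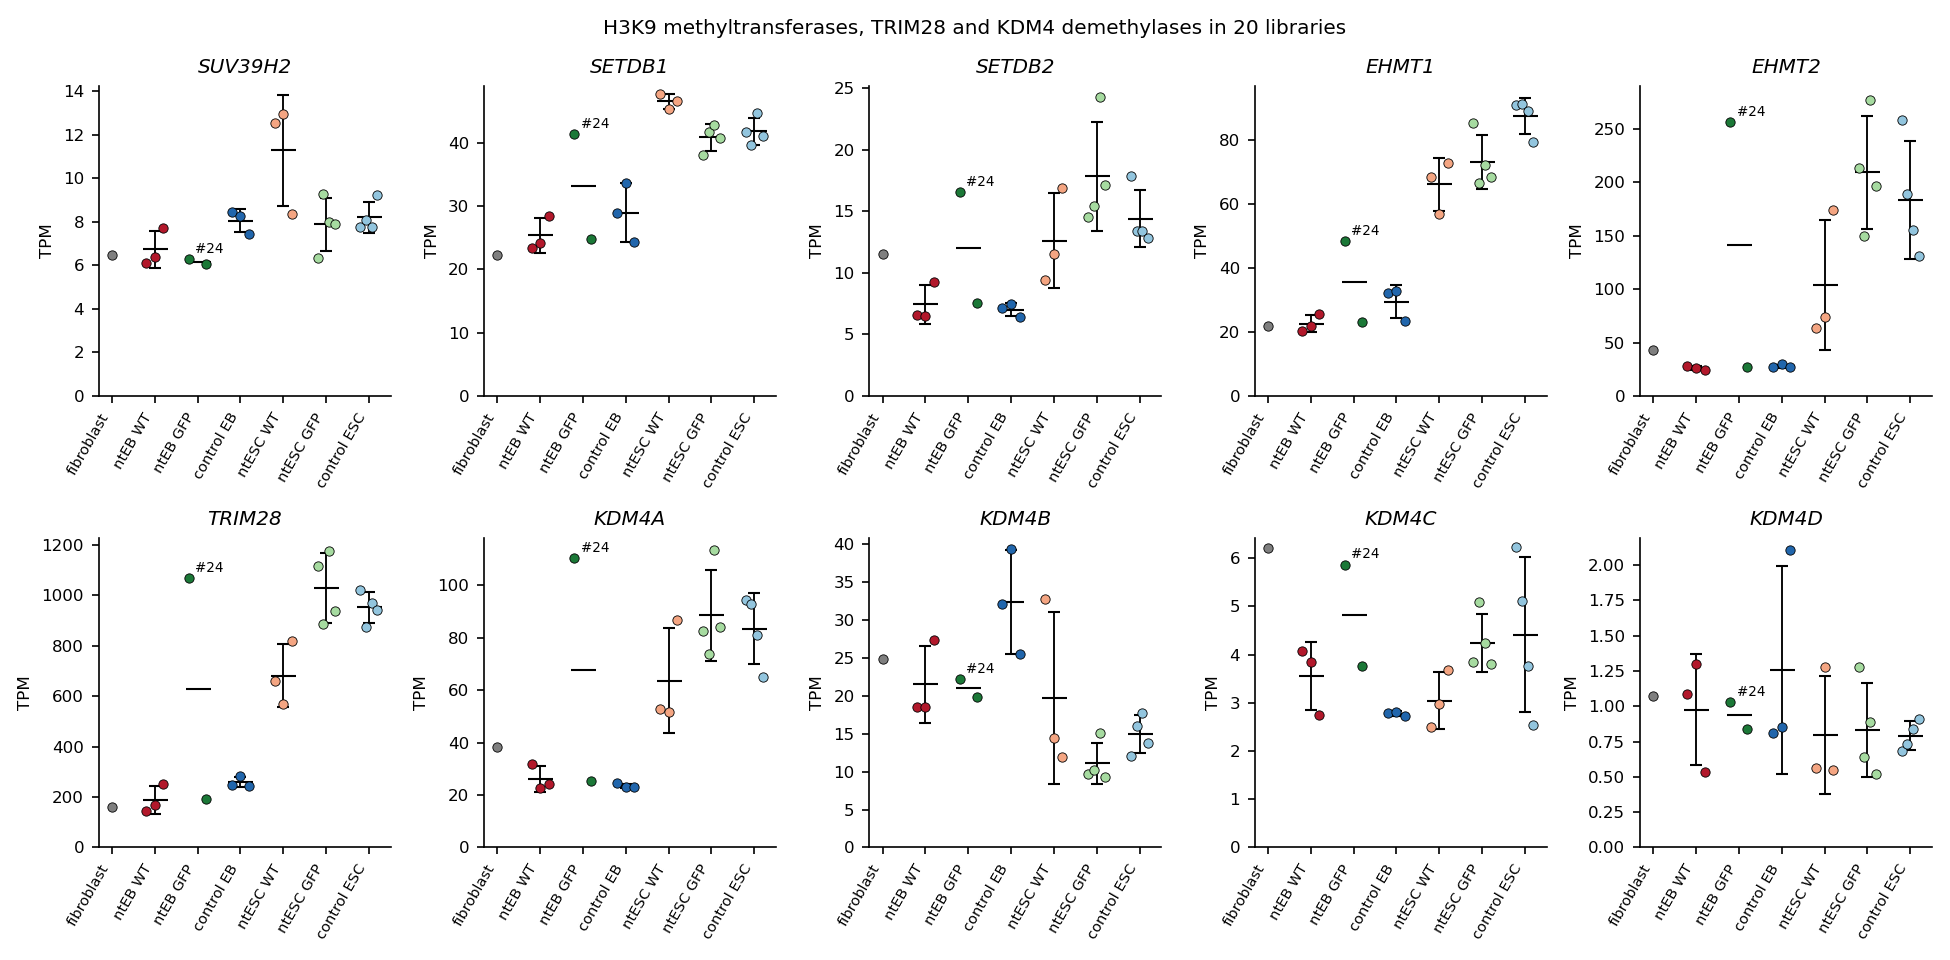
TPM (y axis, from 0) of each of the 10 genes in the 20 libraries, with 1 point per library, in fibroblast, EB and stem cell groups (x axis). Horizontal marks are group means and bars are 1 SD, drawn for groups of 3 or 4 libraries only. EHMT2, TRIM28 and KDM4A lie low in the fibroblast library and all EBs but ntEB GFP #24, which sits at 256, 1067 and 110.3 TPM.

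The fibroblast library was set against the stem cells to show which of these genes differ between the donor cell type and the lines. It held less of 5 members than any of the 11 stem cell libraries, namely TRIM28, EHMT2, EHMT1, KDM4A and SETDB1, as it did for 43.5% of all genes compared. None of the 10 was above that range, against 25% of all genes. Against the control ESC mean, 4 members were at least 2-fold lower, as were 33.2% of all genes. TRIM28 read 162 TPM in the fibroblast library, against a mean of 951 TPM in control ESC lines. EHMT2 read 43.5 TPM against 183 TPM, and EHMT1 read 21.9 TPM against 87.5 TPM. These 3 messages were 5.86, 4.22 and 4.00 times as abundant in control ESC lines as in the fibroblast culture. KDM4A read 38.2 TPM in the fibroblast library and 83.3 TPM in control ESC lines, and SETDB1 22.2 and 41.9 TPM. The remaining 5 members lay inside the range of the stem cells: SUV39H2 at 6.49, SETDB2 at 11.5, KDM4B at 24.9, KDM4C at 6.20 and KDM4D at 1.07 TPM. Against the control EB mean, the fibroblast library was 1.13 log2 units higher for KDM4C, 0.71 for SETDB2, 0.70 for KDM4A and 0.65 for EHMT2, and TRIM28 differed by -0.67. The median log2 difference from control ESC lines was -0.62 over the members, against -0.36 over all 16369 genes. With 1 fibroblast library these differences have no replicate check. Markers of dividing cells summed to 699 TPM in it, against 2191 to 2515 TPM in control ESC lines, and their part in the difference was not tested.

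The central question for nuclear transfer was whether the lines differ from fertilized controls in these genes. No member passed limma's test at an adjusted p under 0.05 in ntESC WT or in ntESC GFP lines against control ESC lines, where 0.0931% and 0.441% of all genes passed. The share in ntESC WT lines was made up of 0.0186% higher and 0.0745% lower. At an unadjusted p under 0.05 there were 4 members in ntESC WT and 1 in ntESC GFP lines, beside 19.3% and 13.8% of all genes. The members' median log2 difference was -0.31 in ntESC WT lines, against -0.01 over all genes, and 0.01 in ntESC GFP lines, against -0.00. The comparison of all 7 ntESC lines with control ESC lines also called none of the 10, beside 0.211% of all genes, and 1 member had an unadjusted p under 0.05, beside 14.2% of all genes. These comparisons share the 4 control ESC libraries, so their values are given side by side only. Where ntESC lines are said below to lie outside the control lines, the share of all genes doing so was not computed.

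EHMT2, the gene of the enzyme that RK-701 inhibits, split the ntESC WT lines. It read 63.8, 73.7 and 174 TPM in ntESC WT #30, #53 and #61, against 189, 155, 131 and 258 TPM in control ESC #15, #17, #37 and #13. The ntESC GFP lines #24, #50, #54 and #55 read 214, 150.1, 278 and 196 TPM. Lines #30 and #53 thus lay below every control line, whereas #61 and the 4 GFP lines did not. The log2 difference from control ESC lines was -0.92 ± 0.34 (SE, adjusted p = 0.206, limma with Benjamini-Hochberg adjustment) in ntESC WT and 0.20 ± 0.32 (adjusted p = 0.810) in ntESC GFP lines.

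Its partner EHMT1 varied less between lines. It read 68.4, 57.0 and 72.8 TPM in ntESC WT #30, #53 and #61 and 85.4, 66.6, 72.2 and 68.5 TPM in ntESC GFP #24, #50, #54 and #55, against 91.1, 89.0, 79.2 and 90.8 TPM in control ESC #15, #17, #37 and #13. Of the 7 ntESC lines, 6 lay below every control line and #24 lay among them. The log2 difference was -0.41 ± 0.12 (adjusted p = 0.154) in ntESC WT, -0.26 ± 0.11 (adjusted p = 0.313) in ntESC GFP and -0.34 ± 0.10 (adjusted p = 0.174) in all 7 lines together. The 95% interval of the last was -0.55 to -0.13, without adjustment over genes.

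TRIM28, whose protein recruits SETDB1, read 659, 569 and 817 TPM in ntESC WT #30, #53 and #61, against 875, 969, 942 and 1019.7 TPM in control ESC #15, #17, #37 and #13. The 3 ntESC WT lines lay below all 4 control lines, with a log2 difference of -0.50 ± 0.14 (adjusted p = 0.146). In ntESC GFP #24, #50, #54 and #55 it read 1116, 885, 1177 and 936 TPM, which overlapped the controls, and the difference was 0.10 ± 0.13 (adjusted p = 0.749). SETDB1 itself read 47.7, 45.3 and 46.6 TPM in ntESC WT #30, #53 and #61, slightly above the 39.7 to 44.8 TPM of control ESC lines (0.15 ± 0.08, adjusted p = 0.330). It read 38.0 to 42.9 TPM in ntESC GFP lines, which overlapped the controls (-0.04 ± 0.08, adjusted p = 0.873).

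SUV39H2, a heterochromatin methyltransferase, was with SETDB1 and KDM4B among the 3 members whose difference in ntESC WT lines was above 0. It read 12.5, 13.0 and 8.33 TPM in ntESC WT #30, #53 and #61, 6.34 to 9.28 TPM in ntESC GFP lines and 7.74 to 9.24 TPM in control ESC lines. Again #30 and #53 lay outside the controls and #61 inside (0.43 ± 0.19, adjusted p = 0.256). SETDB2 read 9.42, 11.6 and 16.9 TPM in ntESC WT #30, #53 and #61 and 14.5 to 24.3 TPM in ntESC GFP lines, against 12.9 to 17.9 TPM in control ESC lines. Its log2 differences were -0.22 ± 0.23 (adjusted p = 0.603) in ntESC WT and 0.29 ± 0.21 (adjusted p = 0.580) in ntESC GFP lines.

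Of the demethylases, KDM4A read 52.6, 51.5 and 86.7 TPM in ntESC WT #30, #53 and #61 and 82.5, 73.9, 114 and 84.0 TPM in ntESC GFP #24, #50, #54 and #55, against 92.8, 81.0, 65.1 and 94.4 TPM in control ESC #15, #17, #37 and #13. Only #30 and #53 lay below the control lines. The difference was -0.42 ± 0.21 (adjusted p = 0.298) in ntESC WT and 0.08 ± 0.20 (adjusted p = 0.879) in ntESC GFP lines. KDM4B read 32.8 TPM in ntESC WT #30, above the other 10 stem cell libraries at 9.34 to 17.8 TPM. KDM4C read 2.50 to 3.67 TPM in ntESC WT and 3.80 to 5.09 TPM in ntESC GFP lines, within the 2.54 to 6.24 TPM of control ESC lines but for #30. KDM4D stayed near 1 TPM or below, at 0.550 to 1.28 TPM in ntESC WT, 0.521 to 1.28 TPM in ntESC GFP and 0.681 to 0.911 TPM in control ESC lines. Its log2 difference was -0.08 (95% interval -0.94 to 0.79) in ntESC WT and 0.0039 (-0.80 to 0.81) in ntESC GFP lines, intervals that leave room for changes in either direction. KDM4E, a near copy of KDM4D, was listed at 0 to 0.622 TPM, and reads shared by both would have been dropped by the requirement of a unique match, so both values are uncertain.

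**Figure D2:**
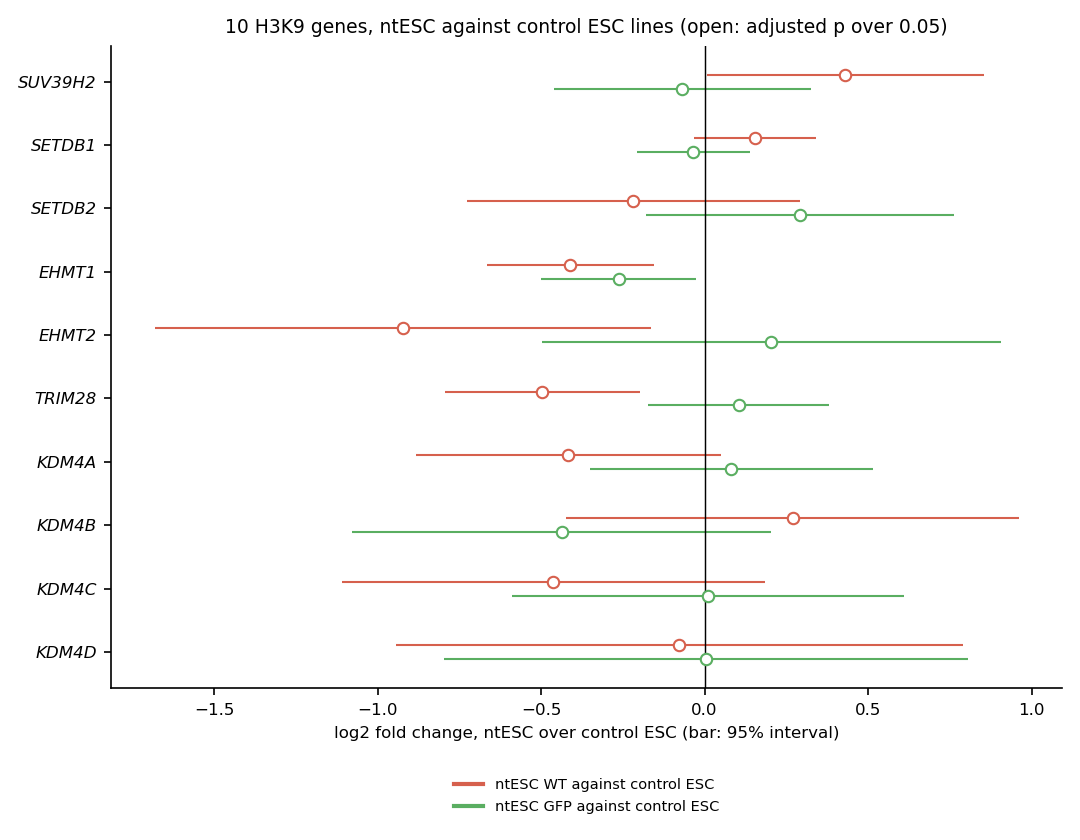
Log2 fold change of each of the 10 genes (x axis) in ntESC WT and ntESC GFP lines over control ESC lines, from limma on log2(TPM + 0.1), with 95% intervals. All points are open because none had an adjusted p under 0.05, and the ntESC WT interval of EHMT2 is wide, with lines at 63.8, 73.7 and 174 TPM.

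The ntESC WT calls turned on line #61. Without it, 5 members passed the adjusted test against control ESC lines: EHMT2 (-1.37, adjusted p = 0.0115), TRIM28 (-0.63, 0.0123), EHMT1 (-0.48, 0.0279) and KDM4A (-0.66, 0.0359) were lower and SUV39H2 (0.63, 0.0346) was higher. In that same fit 10.1% of all genes were lower and 7.9% higher, so the number of calls over all genes turned on #61 as well. Without #30 and #53, which leaves #61 alone and assumes that it varies like the other groups, none passed. The ntESC WT and ntESC GFP lines had different donor animals, and the authors karyotyped #30 as XY and #24 as XX. Transgene, animal and sex cannot be told apart in comparing them. Between the donor types, ntESC WT against ntESC GFP lines, none of the 10 passed beside 0.552% of all genes, and 6 had an unadjusted p under 0.05 beside 24.2%. TRIM28 came closest at -0.60 ± 0.14 (adjusted p = 0.0665), followed by EHMT2 at -1.13 ± 0.34 (adjusted p = 0.117). Without #61, 6 members passed that test, with TRIM28 at -0.74 and EHMT2 at -1.57 (adjusted p = 0.0046 for both), where 26.2% of all genes passed. The libraries of #30 and #53, in which EHMT2, TRIM28 and KDM4A were lowest, were those with the lowest sums of pluripotency markers and the highest of fibroblast markers at this stage. The part of these markers in the differences was not tested. In bulk libraries such as these, fewer cells of a type and less RNA per cell cannot be told apart.

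EB formation was accompanied by much larger differences. In control EB against control ESC lines, 6 of the 10 members fell, where 35.9% of all genes fell, and 1 rose, where 20.7% rose. In ntEB WT against ntESC WT lines, 6 fell (32.1% of all genes) and none rose (14.3%), 46.4% of all genes having changed. In ntEB GFP against ntESC GFP lines, 2 fell (16.2%) and 1 rose (13.6%), 29.8% having changed. The members' median log2 fold changes were -0.79, -0.80 and -0.49 in these comparisons, against medians of -0.28, -0.33 and -0.12 over all genes. After quantile normalization the medians over all genes were -0.08, -0.08 and -0.17, and the genes called in ntEB WT split into 3120 higher and 3926 lower, against 2372 and 5307 on TPM. Relative to all genes, the members' medians were 0.52, 0.48 and 0.38 log2 units lower on TPM.

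**Figure D3:**
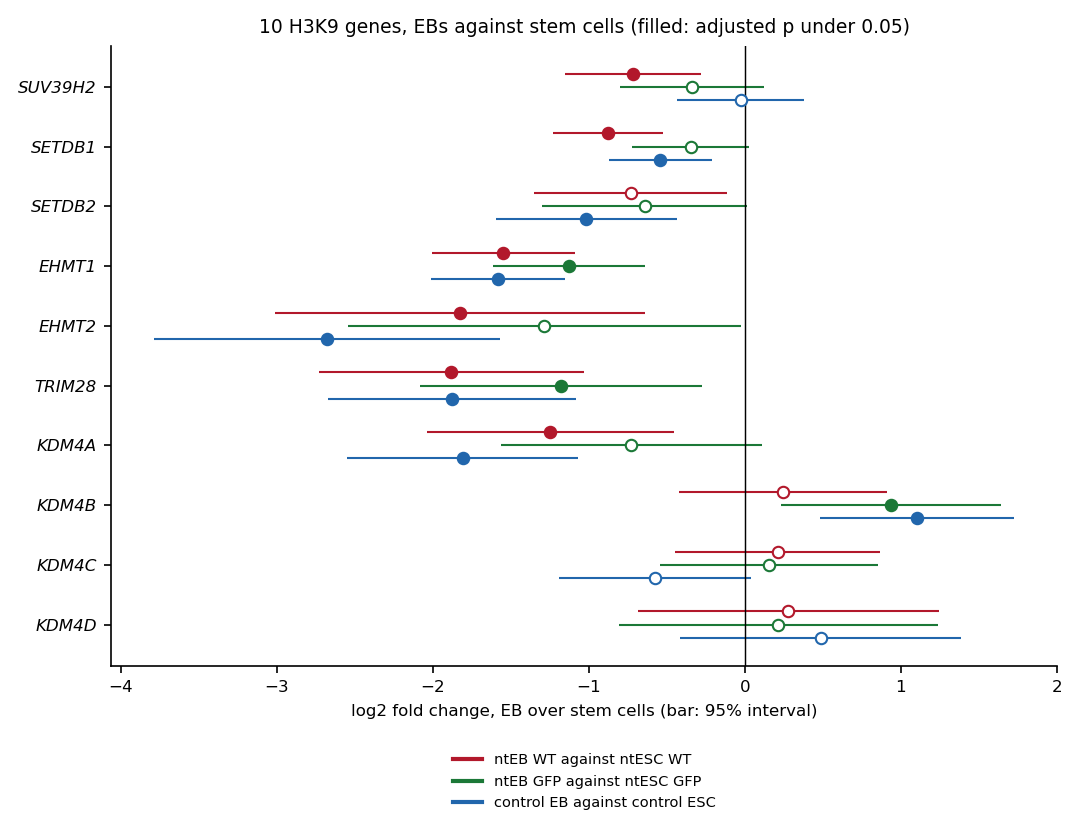
Log2 fold change of each of the 10 genes (x axis) in EBs over stem cells, for ntEB WT, ntEB GFP and control EB, from limma with 95% intervals. Filled points had an adjusted p under 0.05; EHMT1 and TRIM28 are filled to the left of 0 in all 3 comparisons, and KDM4B is filled to the right in control EB (1.10) and ntEB GFP (0.94).

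Both genes of the EHMT pair were lower in EBs. EHMT2 read 26.9, 26.7 and 29.5 TPM in control EB #13, #37 and #17, against 131 to 258 TPM in control ESC lines, and fell by 2.68 ± 0.52 (SE) on the log2 scale (adjusted p = 0.000489). In ntEB WT #30, #53 and #61 it read 28.0, 26.6 and 24.3 TPM, and it fell by 1.83 ± 0.56 (adjusted p = 0.0142). The EBs converged on one level although the ntESC WT lines had started at 63.8, 73.7 and 174 TPM, and without ntESC WT #61 the call was lost (-1.38, adjusted p = 0.0783). EHMT2 read 256 TPM in ntEB GFP #24 and 27.4 TPM in #50, and the pooled difference from ntESC GFP lines, -1.28 ± 0.59, did not pass (adjusted p = 0.112). Without ntEB GFP #24 it was -2.89 (adjusted p = 0.000164), in a fit in which 6 members and 28.6% of all genes fell.

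EHMT1 read 20.3, 21.8 and 25.5 TPM in ntEB WT #30, #53 and #61, 48.4 and 23.0 TPM in ntEB GFP #24 and #50, and 32.0, 23.5 and 32.8 TPM in control EB #13, #37 and #17. All 8 EB libraries lay below all 11 stem cell libraries, whose lowest was 57.0 TPM. The share of all genes separated in this way was not computed. EHMT1 fell in all 3 groups, with log2 fold changes of -1.55 ± 0.22 in ntEB WT (adjusted p = 6.80e-05), -1.12 ± 0.23 in ntEB GFP (adjusted p = 0.00289) and -1.58 ± 0.20 in control EB (adjusted p = 1.68e-05). The ntEB GFP call was lost without #50 (-0.59, adjusted p = 0.128).

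TRIM28 read 145, 168 and 251 TPM in ntEB WT #30, #53 and #61, against 569 to 817 TPM in ntESC WT lines, and its log2 fold change was -1.88 ± 0.40 (adjusted p = 0.0014). It read 249, 246 and 284 TPM in control EB #13, #37 and #17, against 875 to 1019.7 TPM in control ESC lines (-1.88 ± 0.37, adjusted p = 0.000582). Without lines #30 and #53, which leaves 1 WT line, the ntEB WT value was -1.70 (adjusted p = 0.0928). In ntEB GFP it read 1067 TPM in #24, inside the 885 to 1177 TPM of ntESC GFP lines, and 191 TPM in #50. The pooled log2 fold change of -1.18 ± 0.43 passed narrowly (adjusted p = 0.0469), but it was lost without any 1 of 15 of the 19 libraries in the fit and was 0.064 (adjusted p = 0.924) without ntEB GFP #50, against -2.42 (adjusted p = 9.42e-06) without #24. With the line as a block the adjusted p was 0.0989.

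SETDB1, the enzyme that TRIM28 recruits, fell by a smaller amount. It read 28.9, 24.3 and 33.7 TPM in control EB #13, #37 and #17, against 39.7 to 44.8 TPM in control ESC lines, and fell by 0.54 ± 0.16 (adjusted p = 0.00784). This call was lost after quantile normalization (-0.29, adjusted p = 0.061) and without control EB #37 (-0.42, adjusted p = 0.0528). It read 23.4, 24.2 and 28.5 TPM in ntEB WT #30, #53 and #61 and fell by 0.88 ± 0.17 (adjusted p = 0.000622), a call lost without lines #30 and #53 (-0.71, adjusted p = 0.0886). In ntEB GFP #24 and #50 it read 41.4 and 24.8 TPM (-0.35 ± 0.18, adjusted p = 0.150), and without #24 it passed (-0.71, adjusted p = 0.00415).

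SETDB2 read 7.17, 6.42 and 7.47 TPM in control EB #13, #37 and #17, below the 12.9 to 17.9 TPM of control ESC lines, and fell by 1.02 ± 0.27 (adjusted p = 0.00492). It read 6.55, 6.51 and 9.30 TPM in ntEB WT #30, #53 and #61, and its log2 fold change of -0.73 ± 0.29 lay at the threshold (adjusted p = 0.0504). That value ranged over adjusted p of 0.022 to 0.216 as single libraries were left out. In ntEB GFP #24 and #50 it read 16.6 and 7.52 TPM (-0.64 ± 0.31, adjusted p = 0.127), and without #24 it passed (-1.21, adjusted p = 0.00984).

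SUV39H2 did not fall with the other writers in control EBs. It read 8.45, 7.45 and 8.25 TPM in control EB #13, #37 and #17, against 7.74 to 9.24 TPM in control ESC lines (-0.03, 95% interval -0.43 to 0.38). In ntEB WT #30, #53 and #61 it read 6.13, 6.37 and 7.69 TPM, below the 8.33 to 13.0 TPM of ntESC WT lines, and fell by 0.72 ± 0.20 (adjusted p = 0.00959). The call was lost with the line as a block (adjusted p = 0.0707), and without lines #30 and #53 the difference was -0.11 (adjusted p = 0.802). In ntEB GFP #24 and #50 it read 6.27 and 6.04 TPM (-0.34 ± 0.22, adjusted p = 0.252), a difference that passed after quantile normalization (-0.63, adjusted p = 0.0317).

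The KDM4 demethylases diverged from each other in EBs. KDM4A read 24.4, 22.9 and 23.1 TPM in control EB #13, #37 and #17, against 65.1 to 94.4 TPM in control ESC lines, and fell by 1.81 ± 0.35 (adjusted p = 0.000436). In ntEB WT #30, #53 and #61 it read 31.9, 22.8 and 24.0 TPM and fell by 1.25 ± 0.37 (adjusted p = 0.0125). That call was lost after quantile normalization (-0.91, adjusted p = 0.0504), without ntESC WT #61 (-1.001, adjusted p = 0.0642) and without lines #30 and #53, where the change was larger but rested on 1 WT line (-1.85, adjusted p = 0.0522). KDM4A read 110.3 TPM in ntEB GFP #24, above 3 of the 4 ntESC GFP lines, and 25.2 TPM in #50, so that the pooled change of -0.73 ± 0.40 did not pass (adjusted p = 0.175). Without #24 it was -1.79 (adjusted p = 0.000295).

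KDM4B moved the other way. It read 32.2, 25.6 and 39.4 TPM in control EB #13, #37 and #17, above the 12.1 to 17.8 TPM of all control ESC lines, and rose by 1.10 ± 0.29 (adjusted p = 0.00469). In ntEB GFP #24 and #50 it read 22.2 and 19.8 TPM, above the 9.34 to 15.1 TPM of ntESC GFP lines (0.94 ± 0.33, adjusted p = 0.0444). This ntEB GFP call was lost without any 1 of 11 of the 19 libraries and with the line as a block (adjusted p = 0.123). Without ntEB GFP #24 it was 0.85 (adjusted p = 0.130) and without #50 it was 1.02 (adjusted p = 0.219). In ntEB WT #30, #53 and #61 it read 18.6, 18.5 and 27.4 TPM, against 32.8, 14.5 and 11.9 TPM in the ntESC WT lines (0.24 ± 0.31, adjusted p = 0.549). Without ntESC WT #30 the log2 fold change was 0.68 (adjusted p = 0.0467), and without lines #30 and #53 it was 1.20 (adjusted p = 0.0321).

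KDM4C and KDM4D passed in none of these comparisons. KDM4C held a narrow 2.73 to 2.82 TPM in the 3 control EBs, against 2.54 to 6.24 TPM in control ESC lines (-0.57 ± 0.29, adjusted p = 0.103), and passed when control ESC #37 was left out (-0.81, adjusted p = 0.0219). It read 4.07, 3.84 and 2.74 TPM in ntEB WT #30, #53 and #61 and 5.87 and 3.77 TPM in ntEB GFP #24 and #50. KDM4D read 0.811, 2.11 and 0.850 TPM in control EB #13, #37 and #17 (0.49 ± 0.43, adjusted p = 0.344), and 0.537 to 1.30 TPM in the 5 ntEB libraries. Control EB #37 held the highest KDM4D value of all 20 libraries.

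The EB and stem cell libraries of the same line gave the change line by line. EHMT1 was lower in the EBs of all 8 lines, with log2 ratios of -1.38 to -1.75 in 7 of them and -0.82 in #24. TRIM28 ratios ran from -1.70 to -2.21 in 7 lines, and EHMT2 ratios from -1.18 to -3.26. KDM4A ratios ran from -0.72 to -1.95 in the same 7 lines, SETDB1 from -0.41 to -1.02 and SETDB2 from -0.52 to -1.30. In each of these 6 genes the 7 lines other than #24 all moved down. The median log2 ratio over all genes was also below 0 in these 7 lines, at -0.23 to -0.39. The share of all genes that moved down in all 7 was not computed, so this count does not set the 6 genes apart from other genes. KDM4B was higher in the EBs of 7 of 8 lines, by 0.35 to 1.40 log2 units, and lower only in #30 (-0.81). SUV39H2 was lower by 1.02 and 1.01 in #30 and #53 and lay between -0.61 and 0.12 in the other 6 lines. KDM4C was lower in 4 lines and higher in 4.

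Line #24 stood apart in these ratios. Its EBs held 256 TPM of EHMT2, 1067 TPM of TRIM28, 110.3 TPM of KDM4A, 41.4 TPM of SETDB1 and 16.6 TPM of SETDB2, which were 120%, 95.6%, 134%, 109% and 114% of its own stem cell levels. EHMT1 was the exception among the genes that fell elsewhere, at 56.7% of the stem cell level. KDM4B reached 228% of it. The median log2 ratio over all genes was 0.16 in #24 and -0.23 to -0.39 in the other lines. The ntEB GFP #24 library held 5406 TPM of pluripotency markers, 1774 TPM of dividing cell markers and also 12561 TPM of fibroblast markers, and their part in its member values was not tested. Fibroblast markers summed to 40002, 19759 and 1774 TPM in ntEB WT #30, #53 and #61, against 5539 to 10712 TPM in control EB. Amnion and trophoblast markers summed to 256, 203 and 2176 TPM in the same order, against 949 to 5406 TPM in control EB. Liver and endoderm markers summed to 111, 67.8 and 15.6 TPM, against 13.4 to 37.5 TPM. In ntEB GFP #24 these 2 lists summed to 92.2 and 188 TPM. The part of these markers was not tested either.

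**Figure D4:**
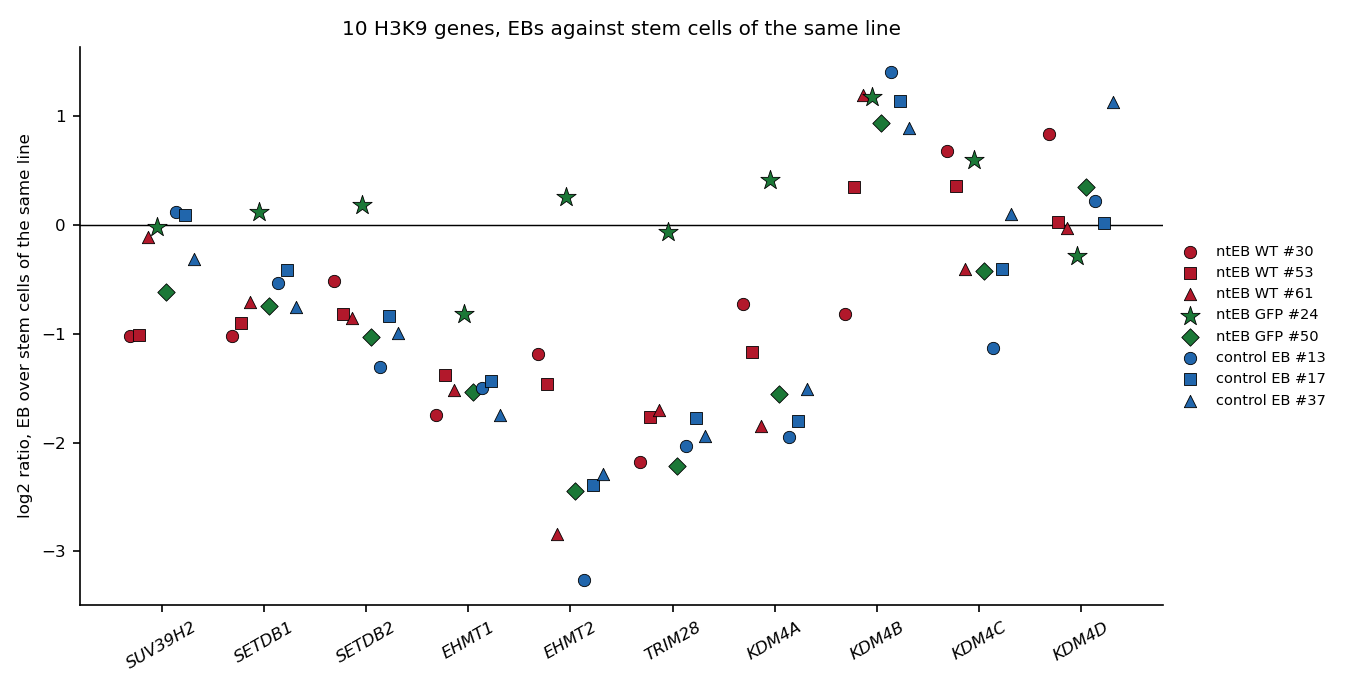
Log2 ratio of each of the 10 genes in EBs over stem cells of the same line (y axis), 1 symbol per line for 8 lines. Line #24 (star) lies near 0 for SETDB1, SETDB2, EHMT2, TRIM28 and KDM4A (0.12, 0.19, 0.26, -0.06 and 0.42), whereas the other 7 lines lie below 0 for these genes.

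Whether nuclear transfer lines changed differently from control lines on EB formation was tested directly. The change in ntESC WT lines differed from that in control ESC lines for no member and no gene by limma's adjusted test, with 1123 genes (6.79%) at an unadjusted p under 0.05. Without ntEB WT #61, 847 genes (5.12%) but still no member passed. With every library included, SUV39H2 was the only member with an unadjusted p under 0.05 (-0.69 ± 0.28, adjusted p = 0.732). The difference for EHMT1 in that fit was 0.03 (95% interval -0.60 to 0.66). For ntESC GFP lines no member passed, where 0.0181% of all genes did, with EHMT2 at 1.39 ± 0.79 (adjusted p = 0.415) and KDM4A at 1.08 ± 0.53 (adjusted p = 0.356). With ntEB GFP #24 as the only GFP EB library, assumed to vary like the other groups, 4 members passed: EHMT2 (3.00, adjusted p = 0.00246), KDM4A (2.14, 0.00162), TRIM28 (1.94, 0.00108) and EHMT1 (0.99, 0.0156). In that fit 13.9% of all genes passed in the same direction, and these 4 calls describe 1 library. At an unadjusted p under 0.05 there was no member with both GFP EB libraries included, beside 14.5% of all genes.

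Among EBs alone, none of the 10 passed the adjusted test in ntEB WT against control EB, where 1 of 16621 genes (0.00602%) did. None passed in ntEB GFP against control EB either, where 2 genes (0.012%) did. With so few calls over all genes, this does not show that the members were alike. At an unadjusted p under 0.05 there was none in either comparison, beside 3.83% and 9.46% of all genes. KDM4B came nearest in ntEB WT, at 18.5 to 27.4 TPM against 25.6 to 39.4 TPM in control EB (-0.59, 95% interval -1.19 to 0.01). The interval for EHMT2 in ntEB WT against control EB was -1.67 to 1.52 although both groups lay within 24.3 to 29.5 TPM. The fit's shared estimate of the spread included ntEB GFP at 256 and 27.4 TPM. Without ntEB GFP #50, EHMT2 (3.21, adjusted p = 0.00487), KDM4A (2.23, 0.0144) and TRIM28 (2.04, 0.0355) passed in ntEB GFP #24 against control EB, where 3.06% of all genes were higher.

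The 3 members with the widest range were set beside the sum of the 9 pluripotency markers in all 20 libraries. EHMT2, TRIM28 and KDM4A were highest in ntEB GFP #24 and in the stem cells other than ntESC WT #30 and #53, and lines #30 and #53, at 4217 and 3808 TPM, lay between the other stem cells and the EBs. The fibroblast library and the other 7 EBs held 24.3 to 43.5 TPM of EHMT2. Markers of dividing cells ran in parallel, at 462 to 977 TPM in the 7 EBs other than #24 and 1957 to 2515 TPM in stem cells. All 10 of these dividing cell markers fell in control EB and in ntEB WT, and 9 of 10 in ntEB GFP. Libraries of 1 stage share culture and preparation, so the plot is a description of these 20 libraries, and the part of either marker set in the members' changes was not tested.

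**Figure D5:**
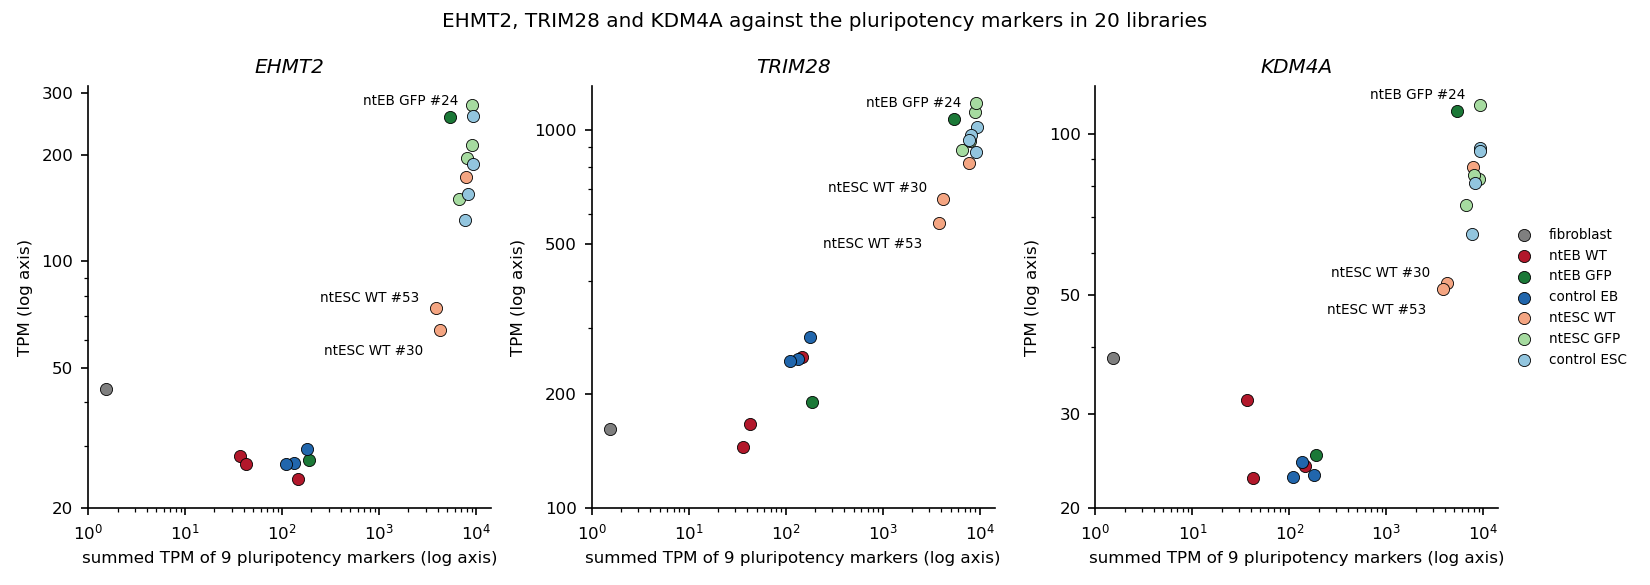
TPM of EHMT2, TRIM28 and KDM4A (y axis, log) against the summed TPM of 9 pluripotency markers (x axis, log), 1 point per library. The ntEB GFP #24 library (5406 TPM of markers) lies with the stem cells, and ntESC WT #30 and #53 lie below them at 63.8 and 73.7 TPM of EHMT2.

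The wider H3K9 machinery was read from lists of 27 further tested genes. In ntESC WT and ntESC GFP lines none passed against control ESC lines, with 7 and 2 at an unadjusted p under 0.05, beside 19.3% and 13.8% of all genes. In control EB 11 of the 27 fell and 3 rose, in ntEB WT 12 fell and 1 rose, and in ntEB GFP 8 fell and 1 rose. Over all genes 35.9%, 32.1% and 16.2% fell and 20.7%, 14.3% and 13.6% rose in these comparisons. Among HP1 readers and chromatin assembly factors, the large subunit of the replication-coupled assembly factor CAF-1, CHAF1A, fell in all 3 groups, with log2 fold changes of -3.31 in control EB, -3.20 in ntEB WT and -2.02 in ntEB GFP. The HP1 gene CBX1 changed by -1.59, -1.24 and -1.03 in the same order. Of the partners of EHMT, UHRF1, which binds H3K9 methylation and hemimethylated DNA, changed by -2.68, -2.52 and -1.35, whereas CDYL2 rose by 1.73 in control EB.

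The HUSH complex, which works with SETDB1 on long silent inserts, was split. Its reader MPHOSPH8 changed by -1.26, -1.08 and -1.15 in control EB, ntEB WT and ntEB GFP, and its ATPase partner MORC2 by -1.22, -1.10 and -0.81. The scaffold TASOR rose by 1.16 in control EB and 0.94 in ntEB WT. Among other demethylases JMJD1C, of the KDM3 family, changed by -1.93, -1.15 and -1.02. Of 4 further methyltransferases listed, only PRDM2 was tested, and it rose by 1.21 in control EB. SUV39H1, another of the 4, was absent from the stem cell and EB data, which hold no sex chromosomes by the authors' design, and could not be read. Its absence does not show that it was unexpressed. Of 7 class I and II histone deacetylases, the targets of TSA, 5 fell in control EB, 5 in ntEB WT and 1 in ntEB GFP, with HDAC2 at -2.08, -1.60 and -1.33. Several of these genes, CHAF1A and UHRF1 among them, are used mainly in dividing cells, whose 10 markers had medians of -1.66, -2.01 and -1.14. The part of dividing cells in these changes was not tested.

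The genes most like each member over the 20 libraries were found by the root mean square (RMS) difference of log2(TPM + 0.1) after each of 16616 genes was centred on its own mean. For EHMT2, which varied with an SD of 1.33 log2 units, these were PARP1, TERF1 and SYNM at 0.28 to 0.31. For TRIM28 (SD 1.09) they were BEND3, ACAD9 and HDHD5 at 0.20 to 0.22, and for KDM4A (SD 0.85) USP48, TFDP2 and CYB5RL at 0.16 to 0.19. EHMT1 (SD 0.80) lay closest to PELP1, STIP1 and LOC100400596 at 0.10 to 0.16. EHMT1 was the 849th gene nearest to its partner EHMT2, at 0.72, while TRIM28 was the 57th, at 0.47. The values were not scaled, so this measure also counts unlike sizes of change. The SD was 0.80 in EHMT1, 1.09 in TRIM28 and 1.33 in EHMT2, and these ranks do not show that EHMT1 varied in another direction. SETDB1 (SD 0.37) lay nearest to TRIM27, PRMT7 and AAAS at 0.10 to 0.11, and SETDB2 (SD 0.56) to RPRD1B, COG1 and RNF19B at 0.14 to 0.18. SUV39H2 (SD 0.29) lay nearest to CDC42SE2, POLR3GL and CS at 0.18. For KDM4B (SD 0.59), FAM131A, ZNF362 and RAB5B lay at 0.25 to 0.28, and for KDM4C (SD 0.41), FAM210B, ZNF558 and NUCB1 lay at 0.26 to 0.28. KDM4D (SD 0.45) had no close match, with ING3, DLGAP4 and NME2 at 0.36 to 0.37. The 20 libraries share stages, lines and culture, so these are descriptions with no test.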

How the data were processed

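The authors prepared stranded poly(A) libraries, read them as 100-bp pairs on NovaSeq instruments, trimmed reads with fastp (minimum length 20), aligned them to calJac4 with STAR (unique matches, at most 1 mismatch), counted with featureCounts and deposited TPM without sex chromosomes. For the gene annotation, strand setting and sequencer of each library, the entry is "not given in the sources used here". All libraries summed to 1000000 TPM, so TPM is set within a library and keeps no absolute depth. The stem cell and EB tables shared 21181 genes. RefSeq names matched 19366 of 22330 and 19656 of 22803 genes, and 3 X- or Y-linked genes per table were dropped. Sequences and coordinates were not used here.

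The main test was limma 3.58.1 (R 4.3.3; lmFit, contrasts.fit, eBayes with trend, two-sided) on log2(TPM + 0.1), keeping genes that averaged 0.5 TPM or more across the libraries fitted, with Benjamini-Hochberg adjustment over all genes and a threshold of 0.05. A fold change on this scale understates that of low genes. The fits covered 11 stem cell libraries (16118 genes), 19 stem cell and EB libraries (16545 genes) and 8 EB libraries (16621 genes), and were tested on simulated data. The single fibroblast library entered none. Tables used Python 3.11.15, pandas 2.3.3 and numpy 2.4.6.

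The members and all gene lists were chosen with earlier results of these data known. All 10 members are named; of other lists, up to 3 called genes with the largest change, and for likeness the 3 nearest genes. Alternatives were other pseudocounts, no filter, quantile normalization, eBayes without trend, leaving out each library, and the line as a replicate block; leaving out lines #30 and #53 was added after seeing the data. Equal numbers mark the same cell line at both stages, so EB and stem cell libraries are paired by the labels. The correlation of their deviations from the group means was 0.0334 in #13 and 0.117 to 0.260 in the other 7 lines. It was the same 0.167 in #24 and #50, whose deviations mirror each other because no other GFP line had both stages. These are therefore not separate checks.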

Additional observations from a re-analysis of the deposited data

Results flagged for a closer look

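In 20 combinations of a member and a group of 4 libraries, the highest or lowest library was compared with its group by Dixon's ratio of gap to range (critical value 0.829 for 4), which chance exceeds in about 1 in 20 groups. There were 2 such libraries. SETDB2 read 17.9 TPM in control ESC #13, apart from the 12.9 to 13.4 TPM of the other 3 lines (ratio 0.883). KDM4B read 15.1 TPM in ntESC GFP #54, apart from the 9.34 to 10.3 TPM of the other 3 lines (ratio 0.838). No member's EB response differed between nuclear transfer and control lines by the adjusted test.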

How the results depend on the processing

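Over the alternatives other than leaving out 1 library, the 10 genes kept their side of the threshold in 662 of the values computed, lost a call in 15 and gained one in 3. The counts of called members moved under these alternatives in ntEB GFP against ntESC GFP, where 3 called members became 1 with no filter, 1 without the trend, 1 with the line as a replicate block and 1 in the same 16 libraries without the block, and in ntEB WT against ntESC WT, where 6 became 3 without lines #30 and #53. The block took away the calls of SUV39H2 in ntEB WT and of TRIM28 and KDM4B in ntEB GFP, and changed no other call; the calls of TRIM28 and KDM4B were also lost in the 16 libraries without it. No paired analysis was possible within 1 stage because the groups there share no line.

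Leaving out 1 library at a time gave 0 to 5 called members in ntESC WT against control ESC, 0 to 6 in ntESC WT against ntESC GFP, 4 to 8 in ntEB WT against ntESC WT, 6 to 8 in control EB against control ESC and 0 to 6 in ntEB GFP against ntESC GFP. The shares of all genes called in the same fits ranged over 0.0559% to 18%, 0.192% to 26.2%, 37.9% to 49.5%, 49% to 61.8% and 3.4% to 42.9%, in that order. It gave 0 to 4 for the EB response of ntESC GFP against control ESC lines and 0 to 3 for ntEB GFP against control EB, with 0% to 16.2% and 0% to 3.45% of all genes. One call changed sign: TRIM28 in ntEB GFP against ntESC GFP ranged from -2.42 without ntEB GFP #24 to 0.064 (adjusted p = 0.924) without ntEB GFP #50. Where a group was left with 1 library, that library was assumed to vary like the other groups. Absolute depth is unknown on TPM, where only relative depth could be read from the steps between low values. KDM4D near 1 TPM has the widest intervals of the ntESC comparisons.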
